A study of Rattus norvegicus with 743 samples.

Results

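Omeprazole and esomeprazole are described here in rat liver, each against the vehicle animals of its own study. The members are 16 libraries of 743 in all, 8 treated and 8 vehicle, taken by their labels for treatment, study, batch number and vehicle. The 4 omeprazole rats received 750 mg/kg/day and the 4 esomeprazole rats 600 mg/kg/day, for 4 days. All 16 animals were male Sprague Dawley rats in batch number 2. Each study had 4 rats that received the vehicle alone, 0.5% methylcellulose. Each library came from a different animal, so no libraries had to be summed, and n counts animals.

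Omeprazole is a racemic sulfoxide that blocks the proton pump of the stomach's parietal cells, and esomeprazole is its S-enantiomer. In liver, omeprazole is known as an activator of the aryl hydrocarbon receptor (AhR), a ligand-dependent transcription factor whose classical targets are the Cyp1 genes of the cytochrome P450 (P450) family and several glucuronosyltransferases. The nuclear receptors CAR and PXR are other sensors of foreign compounds, and they raise Cyp2b, Cyp2c and Cyp3a genes together with conjugating enzymes and export pumps. Because the doses differed, 0 pairs of compounds could be compared at a matched dose. The effects stand side by side, and their difference was not tested.

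Library totals ran from 15300000 to 20600000 counts. All 22 hepatocyte genes looked at were detected, with a summed level of 153000 to 201000 CPM (counts scaled by library size) in the treated and 170000 to 229000 CPM in the vehicle animals. The RNA integrity number (RIN) was 7.8 to 8.4 in omeprazole against 7.2 to 8 in their vehicle animals. It was 7.6 to 8.2 in esomeprazole against 6.8 to 7.1 in their vehicle animals, and there the groups did not overlap. Of the esomeprazole libraries, 3 were first read on a flow cell that held no vehicle library of their study. As a further reference, 116 vehicle rats of 30 other studies shared the strain, sex, vehicle and days. They were scaled together with the 16 animals in a separate step and are called the other vehicle animals.

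Omeprazole changed 665 of 12582 genes tested, 384 higher and 281 lower, at an adjusted p of at most 0.05 (edgeR quasi-likelihood test with Benjamini-Hochberg adjustment, used throughout). Cyp1a1 and other drug-metabolising genes led the increases, and hemoglobin genes, Alox15 and Ccnd1 led the decreases. This ranking took only genes whose treated and vehicle animals did not overlap, so the separation of its genes was set by that choice. Of all genes tested, 5.29% were called, 3.05% higher and 2.23% lower. The share of all genes tested whose groups did not overlap is not given for either drug. A lack of overlap therefore describes single genes only. The count depended on single animals. It was 426, 275 and 190 without omeprazole animals 1, 2 and 3, and 142, 195 and 153 without vehicle animals 2, 3 and 4. With RIN as a covariate 22 genes passed, among them 2 glutathione transferases, 1 erythroid marker and 0 AhR targets, and 1671 had an unadjusted p under 0.05 against 3006 without RIN.

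AhR target genes rose most steeply after omeprazole. Of 11 members in the tables, 10 passed the filter on low counts, 4 rose and 0 fell. The median log2 fold change of those tested was 4.21, against -0.003 over all genes tested. Cyp1a1, a P450 that oxidises planar aromatic compounds, stood at 1040, 30.2, 464 and 65.7 CPM in omeprazole animals 1 to 4. In their vehicle animals it stood at 1.63, 1.27, 3.3 and 0.127 CPM. Every omeprazole animal was above every vehicle animal, with animals 1 and 3 the high ones (log2 fold change 7.99, SE 1.55, adjusted p = 0.0367). The call was lost without omeprazole animal 1 or 3 and without any 1 vehicle animal, at log2 values of 6.90 to 8.58 over all animals left out, and with no count filter (adjusted p = 0.0616).

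The same pair of animals was high for the other AhR genes that rose. Cyp1a2, the constitutive liver member of its family, was at 17700, 6040, 14800 and 6540 CPM against 601 to 682 CPM in vehicle animals (log2 fold change 4.13, SE 0.39, adjusted p = 0.00366). Ugt1a6, which conjugates small phenols, was at 1060, 319, 844 and 374 CPM against 13.5 to 44.5 CPM (4.45, SE 0.56, adjusted p = 0.0102). Ugt1a7c, a transcript of the same locus, was at 589, 158, 571 and 176 CPM against 8.05 to 14.8 CPM (4.89, SE 0.58, adjusted p = 0.0089). In these 3 genes animals 1 and 3 lay above animals 2 and 4, and no group overlapped. With RIN as a covariate the 4 calls were lost (adjusted p = 0.102 to 0.329), at log2 values of 6.84 for Cyp1a1, 3.85 for Cyp1a2, 4.14 for Ugt1a6 and 4.31 for Ugt1a7c, and the list's median was 3.99. For the 4 genes together, none of the 116 other vehicle animals was above any omeprazole animal. Ugt1a transcripts share exons, so the division of their reads is uncertain.

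The windows before the start sites of 4 AhR target genes are shown because 3 of them, Cyp1a2, Ugt1a6 and Ugt1a7c, rose after both drugs while Nqo1 was called after neither. Each holds 250 bases, 5′ to 3′ on the gene's strand, from RefSeq (GRCr8, which is not the build of the counts). They lie at chr8:66978150-66978399 (minus strand), chr9:96194768-96195017 (plus), chr9:96187132-96187381 (plus) and chr19:52220268-52220517 (minus). Capitals mark the AhR core letters GCGTG, or CACGC where they stand on the other strand.
Cyp1a2: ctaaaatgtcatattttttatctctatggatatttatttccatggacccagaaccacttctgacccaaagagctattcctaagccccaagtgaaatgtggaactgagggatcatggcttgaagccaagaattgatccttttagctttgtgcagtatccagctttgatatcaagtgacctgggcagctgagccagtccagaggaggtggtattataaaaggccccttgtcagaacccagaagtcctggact
Ugt1a6: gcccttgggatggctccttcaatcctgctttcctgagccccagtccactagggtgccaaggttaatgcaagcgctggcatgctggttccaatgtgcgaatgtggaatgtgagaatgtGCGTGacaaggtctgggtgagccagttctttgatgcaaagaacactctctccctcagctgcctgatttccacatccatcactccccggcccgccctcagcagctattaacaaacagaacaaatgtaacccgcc
Ugt1a7c: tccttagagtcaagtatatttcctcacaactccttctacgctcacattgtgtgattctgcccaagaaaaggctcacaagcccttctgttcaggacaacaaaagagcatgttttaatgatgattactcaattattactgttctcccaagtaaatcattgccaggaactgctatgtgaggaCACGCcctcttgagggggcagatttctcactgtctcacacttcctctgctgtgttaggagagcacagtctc
Nqo1: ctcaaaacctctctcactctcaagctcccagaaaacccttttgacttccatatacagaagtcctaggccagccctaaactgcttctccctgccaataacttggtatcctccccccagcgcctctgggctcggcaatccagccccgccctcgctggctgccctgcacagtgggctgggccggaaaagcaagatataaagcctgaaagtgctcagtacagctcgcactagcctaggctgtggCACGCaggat
The core occurred 1 time each in the windows of Ugt1a6, Ugt1a7c and Nqo1, where its first base lay 133, 71 and 10 bases from the start site, and 0 times in that of Cyp1a2. Of 33469 windows of this length, 25.9% hold it. A match is a description of letters, not of a bound site. Of 6 AhR genes looked for, 5 matched by symbol, and Cyp1b1 held the core 2 times.

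Other AhR genes were high in 1 or 2 omeprazole animals and missed the threshold. Cyp1b1 was at 27.2, 0.917, 4.75 and 0.513 CPM against 0.175 to 0.685 CPM (adjusted p = 0.142). Aldh3a1, an aldehyde dehydrogenase, was at 29.9, 0.815, 27.1 and 1.86 CPM, against 0 counts in all 4 vehicle libraries (adjusted p = 0.168). A count of 0 allows up to 3 counts, which is 0.145 to 0.208 CPM at these depths and covers counting error only. Nqo1, a quinone reductase under AhR and NRF2, was at 484, 77.4, 90.1 and 46.8 CPM against 29.3 to 77.4 CPM (adjusted p = 0.229). Omeprazole animal 1 was the highest for these 3 genes. The groups overlapped for Nqo1 and for Cyp1b1, where omeprazole animal 4 lay within the vehicle range. Ahrr, the AhR repressor, was too low to test, and Tiparp, a feedback regulator of AhR, was at 5.08 to 8.15 CPM against 4.4 to 6.59 CPM (adjusted p = 0.435).

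**Figure D1:**
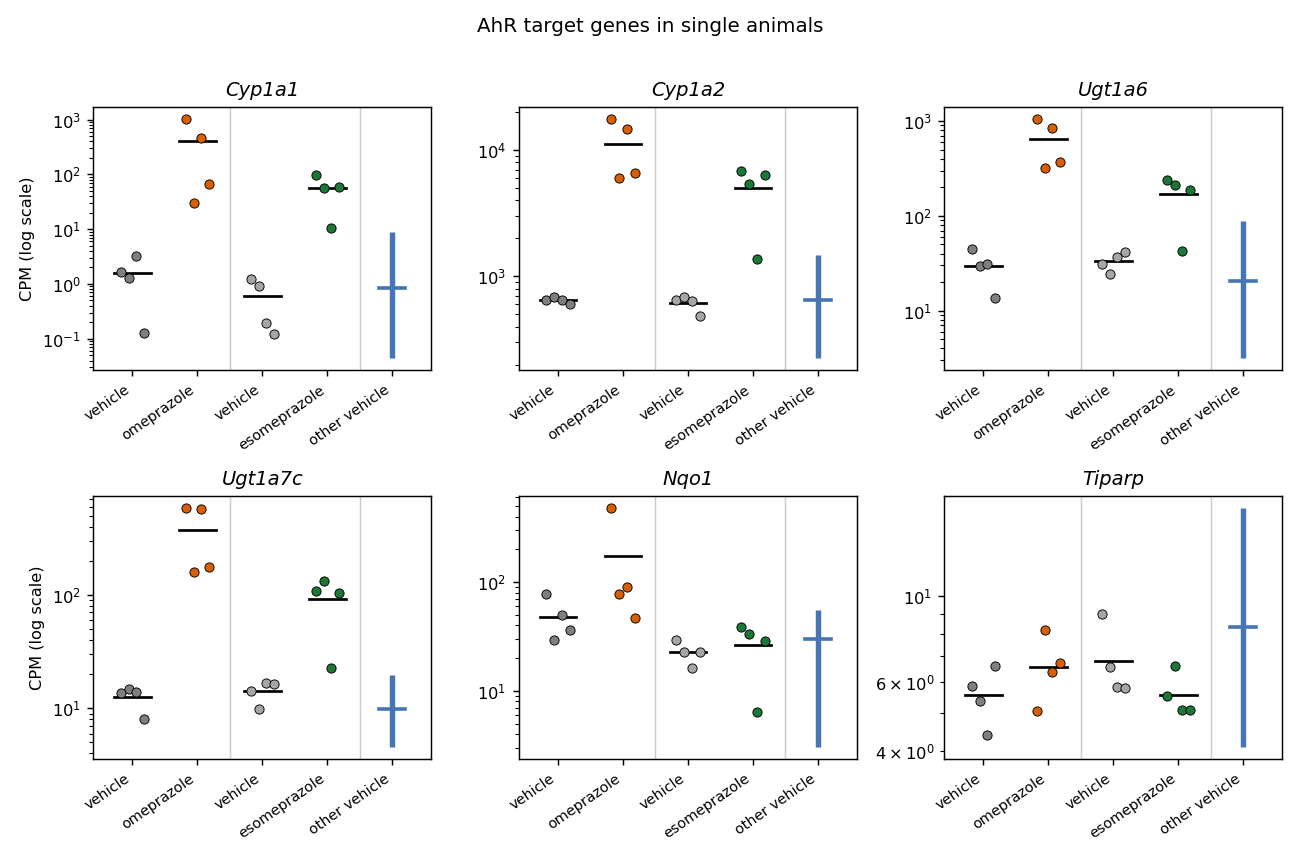
CPM on a log scale of 6 AhR target genes in single animals (points) with group means (black lines), for the omeprazole study (left pair), the esomeprazole study (right pair) and the 116 other vehicle animals (blue bar from lowest to highest, tick at the median). Cyp1a1 reached 30.2 to 1040 CPM after omeprazole and 10.7 to 98.7 CPM after esomeprazole, while Tiparp lay between 4.4 and 8.95 CPM over the 4 groups.

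CAR target genes moved less steeply. Of 15 tested 5 rose and 0 fell, with a median of 0.89. Cyp2c6v1, a P450 of the 2C family, was at 6200, 3710, 6300 and 5400 CPM against 1390 to 1850 CPM (log2 fold change 1.72, SE 0.18, adjusted p = 0.00272). Ephx1, the microsomal epoxide hydrolase, was at 2970, 1170, 2490 and 1530 CPM against 398 to 633 CPM (1.94, SE 0.30, adjusted p = 0.0124). The groups overlapped in neither gene, and omeprazole animal 2 was the lowest treated animal in both. Gsta3, an alpha-class glutathione transferase, was at 244, 158, 193 and 150 CPM against 10.3 to 43.5 CPM (3.12, SE 0.47, adjusted p = 0.0174). Abcc3, a pump that exports conjugates towards the blood, was at 178, 61.9, 103 and 67.3 CPM against 10.9 to 37.1 CPM (2.21, SE 0.48, adjusted p = 0.0459). These groups did not overlap either. Aldh1a1, a retinaldehyde dehydrogenase, rose by 0.89 (adjusted p = 0.0236). With single animals left out 2 to 6 CAR genes rose, the fewest without vehicle animal 2, 3 or 4.

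Cyp2b1 and Cyp2b2, the classical phenobarbital-inducible P450s, were high in every omeprazole animal and highest in animal 1. Cyp2b2 was at 3570, 298, 1170 and 397 CPM against 32.7 to 96.8 CPM, a log2 difference that missed the threshold (4.17, SE 0.95, adjusted p = 0.0575). It passed without omeprazole animal 4 (adjusted p = 0.0422), in DESeq2 (adjusted p = 8.02e-05), in the fit of all 4 groups with and without flow cell (adjusted p = 0.0297 and 0.00565) and in the RefSeq count table (adjusted p = 0.0464). It did not pass with RIN (log2 value 5.22, adjusted p = 0.318), within 1 flow cell (adjusted p = 0.448) or with no count filter (adjusted p = 0.0909). Nor did it pass without any other single animal (adjusted p = 0.0564 to 0.153). Cyp2b1 was at 7010, 740, 1130 and 511 CPM against 166 to 299 CPM (3.28, SE 0.94, adjusted p = 0.0984). No omeprazole animal overlapped the vehicle group in either gene. The genes are near-identical, so how their reads were divided is uncertain.

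Of 10 PXR target genes tested, 3 rose and 1 fell. Cyp2c24, a P450 of the 2C family, was at 62.7, 112, 97.3 and 61.6 CPM against 2.47 to 9.83 CPM (log2 fold change 4.03, SE 0.45, adjusted p = 0.0075). Ces2a, a carboxylesterase, was at 224, 255, 218 and 219 CPM against 31.9 to 77.5 CPM (2.20, SE 0.24, adjusted p = 0.00548). Cyp3a23/3a1, the PXR-inducible rat Cyp3a gene, was at 8570, 5690, 7460 and 5280 CPM against 2420 to 4000 CPM (1.08, SE 0.20, adjusted p = 0.0174). Treated animals were all above vehicle animals in these 3 genes. Ugt1a1, which conjugates bilirubin, was at 805 to 1090 CPM against 1470 to 2070 CPM and fell by 0.99 on the log2 scale (SE 0.14, adjusted p = 0.0075). On the scale of the other vehicle animals the vehicle mean of Ugt1a1, 1760 CPM, lay above the mean of each of the 30 other studies (420 to 1420 CPM), and the omeprazole mean, 899 CPM, lay among them.

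Conjugating enzymes had many increases. Of 18 glutathione transferases tested 7 rose and 0 fell (median 0.66), and 3 to 10 rose with single animals left out, the fewest without omeprazole animal 3 or vehicle animal 4. Gsta4, which detoxifies lipid aldehydes, was at 267, 209, 300 and 254 CPM against 69.7 to 102 CPM (1.70, SE 0.15, adjusted p = 0.00171). Gstt1, of the theta class, was at 57.1, 60.8, 55.3 and 61.9 CPM against 21 to 28.8 CPM (1.29, SE 0.11, adjusted p = 0.00171). Neither gene's groups overlapped. Gsta5 rose by 2.26, Mgst2 by 1.37, Gstm1 by 1.11 and Gstm7 by 0.89. Of 14 glucuronosyltransferase genes tested 5 rose and 1, Ugt1a1, fell. The risers beside Ugt1a6 and Ugt1a7c were Ugt2b10 (2.58), Ugt2b37 (1.00) and Ugt2b35 (0.93).

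NRF2 target genes, which respond to oxidative and electrophilic stress, gave a divided list. Of 29 tested 7 rose and 2 fell, with a median of 0.31. The risers were Gsta4, Gstm1, Ephx1 and Abcc3, which stand on the lists above, with Akr7a3, an aflatoxin aldehyde reductase (2.46), Me1, the cytosolic malic enzyme (0.73), and Gpx2, a glutathione peroxidase. Gpx2 was at 17.4, 2.65, 16.5 and 7.44 CPM against 0 to 0.734 CPM (5.17, SE 0.89, adjusted p = 0.0252). Omeprazole animals 1 and 3 were again the high ones. Hmox1, the heme-degrading enzyme, and Osgin1, an oxidative stress induced gene, fell by 0.89 (adjusted p = 0.0166) and by 1.02 (adjusted p = 0.00322). The vehicle mean of Osgin1, 636 CPM, was above each mean of the other vehicle studies (222 to 506 CPM). With single animals left out 1 to 7 NRF2 targets rose, and 2 in all were called without vehicle animal 2.

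Outside these lists, Grin2c, an NMDA receptor subunit, and Ttc39a, a tetratricopeptide repeat protein, were among the largest increases. Grin2c was at 49.4, 20.3, 37.1 and 13.8 CPM against 0.571 to 1.63 CPM (5.01, SE 0.54, adjusted p = 0.0075). Ttc39a was at 9.33, 4.18, 7.41 and 3.21 CPM against 0 to 0.524 CPM (4.34, SE 0.62, adjusted p = 0.0102). As with the AhR genes, animals 1 and 3 lay above animals 2 and 4. Orm1, an acute phase glycoprotein, was at 534 to 588 CPM against 203 to 257 CPM, without overlap (1.24, SE 0.11, adjusted p = 0.00171). It was the 1 riser of 21 acute phase genes tested (median -0.11), and 1 other, A2m, fell (-1.60, adjusted p = 0.0245). Tdo2, which opens the tryptophan ring, rose by 1.01 (adjusted p = 0.0332).

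Red cell genes made up much of the largest decreases after omeprazole. Of 7 erythroid markers tested 6 fell, with a median of -2.70, and 5 or 6 fell whichever animal was left out. Hbb, the beta chain of hemoglobin, was at 137, 108, 65.9 and 168 CPM against 871, 947, 485 and 588 CPM in vehicle animals 1 to 4 (log2 fold change -2.59, SE 0.33, adjusted p = 0.0075). Alas2, the first enzyme of red cell heme synthesis, was at 2.98, 2.55, 1.3 and 3.27 CPM against 21.8, 19.7, 10.5 and 12.2 CPM (-2.67, SE 0.32, adjusted p = 0.0075). The groups overlapped in neither. The alpha chains Hba-a3 (-3.56) and Hba-a2 (-2.70), Ahsp, which stabilises alpha hemoglobin (-3.71), and Epb42, of the red cell membrane (-2.91), fell too.

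The vehicle group of this study had a high level of these genes. Summed over 9 erythroid markers, of which 0 were at 0 in all libraries, it was 1310 to 2680 CPM, against 167 to 483 CPM after omeprazole. On the scale of the other vehicle animals its Hbb mean was 686 CPM, above their highest single animal (619 CPM) and each of their study means (132 to 385 CPM), while the omeprazole mean was 115 CPM. In bulk liver, fewer cells of a type and less RNA per cell cannot be told apart, and the part of blood in these values was not tested. Alox15, a lipoxygenase, and Lgals5, a galectin of rat reticulocytes, were also among the largest decreases, at -3.30 (adjusted p = 0.0239) and -3.04 (adjusted p = 0.0166).

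Ccnd1, the G1 cyclin D1, was at 6.96, 16.1, 6.61 and 10.6 CPM against 39.1, 86.4, 138 and 93.5 CPM, without overlap (log2 fold change -3.14, SE 0.46, adjusted p = 0.0166). The call was lost without omeprazole animal 3, vehicle animal 2 or vehicle animal 4 (adjusted p = 0.0522, 0.0557 and 0.0517) and with RIN (log2 value -3.57, adjusted p = 0.0901), with log2 values of -3.47 to -2.85 over all animals left out. Its vehicle mean was 84.4 CPM on the scale of the other vehicle animals, whose study means were 18.1 to 68.8 CPM. The omeprazole mean was 9.72 CPM. Of 31 proliferation genes tested Ccnd1 alone fell, and Tk1, thymidine kinase, rose (0.85, adjusted p = 0.0075). Of 20 interferon-stimulated genes tested 2 fell and 0 rose (median -0.92). They were Rsad2, an antiviral enzyme (-2.33, adjusted p = 0.0075), and Cxcl10, a chemokine (-2.39, adjusted p = 0.0289). Here too the vehicle means, 11.3 and 6.16 CPM, were above those of the other vehicle studies (at most 7.47 and 3.44 CPM).

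Other liver functions changed in few members. Of 15 bile acid genes tested 3 fell: Abcb11, the bile salt export pump (-0.54, adjusted p = 0.0323), Slc27a5, which activates bile acids for conjugation (-0.69, adjusted p = 0.0283), and Fgfr4, the receptor that restrains bile acid synthesis (-0.58, adjusted p = 0.00951). Slc22a7, an organic anion carrier, fell by 0.83 (adjusted p = 0.0075). Of 25 constitutive P450s tested 2 fell and 0 rose: Cyp2d3 (-0.55) and Cyp51, which is also the one cholesterol synthesis gene of 25 that fell (-0.64, adjusted p = 0.0116). The summed level of 15 macrophage markers was 549 to 989 CPM against 745 to 1270 CPM, and that of 15 endothelial markers 460 to 542 CPM against 414 to 578 CPM, so the groups overlapped in both. None of these markers was called, and 14 of 15 macrophage markers (median -0.45) and 12 of 15 endothelial markers (median -0.08) had a log2 value below 0. Of 17 lymphocyte markers 10 passed the filter and none was called, with 10 below 0 (median -0.43).

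Of 15 markers of stellate cells, which store vitamin A, and of fibroblasts 3 fell and 1 rose after omeprazole (median -0.52). Reln, the matrix protein reelin, was at 24.6, 27.2, 26.4 and 22.1 CPM against 32.4 to 39.7 CPM (log2 fold change -0.52, SE 0.10, adjusted p = 0.0205). Lrat, which esterifies retinol, was at 21.1, 19.2, 19.7 and 18.2 CPM against 24 to 42.1 CPM (-0.72, SE 0.15, adjusted p = 0.0279). Acta2, smooth muscle actin, was at 2.71, 3.26, 3.11 and 5.13 CPM against 5.68 to 7.29 CPM (-0.85, SE 0.21, adjusted p = 0.0408). Treated animals lay below vehicle animals in these 3 genes. Dpt, the matrix protein dermatopontin, rose (0.75, adjusted p = 0.0271). The summed level of 16 markers overlapped, at 943 to 1210 CPM against 1060 to 1360 CPM. None of the list was called with RIN (median -0.74) or without omeprazole animal 3 or vehicle animal 2, 3 or 4. After esomeprazole 0 of 15 fell (median -0.29).

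Esomeprazole changed 753 of 12372 genes tested, 393 higher and 360 lower. Cyp1a1 again led the increases, followed by Gsta3, Cyp1a2 and Abcc3, and Wbp11, Stac3, Cib2 and Npas2 led the decreases. The ranking again took only genes whose groups did not overlap. Of all genes tested, 6.09% were called, 3.18% higher and 2.91% lower. The count was 369, 478 and 342 without esomeprazole animals 2, 3 and 4, and 370, 464 and 295 without vehicle animals 1, 2 and 3. With RIN as a covariate 0 genes passed in edgeR, and 479 had an unadjusted p under 0.05 against 2826 without RIN. RIN and treatment cannot be told apart where their groups do not overlap. With flow cell in a fit of all 4 groups 21 genes passed. Of the lists fitted again in this way, 1 PXR target was called and no member of the others. Those were AhR, CAR, NRF2, PPARalpha and ATF4 targets, glucuronosyltransferases, glutathione transferases, fat and cholesterol synthesis, ER chaperones, erythroid markers, and stellate and fibroblast markers. The median of the CAR targets was 0.54 in that fit and 0.46 without flow cell, and that of glutathione transferases 0.46 and 0.33. The median was also larger in size with flow cell for AhR targets (0.345 and 0.126), fatty acid synthesis (-0.325 and -0.273) and stellate and fibroblast markers (-0.465 and -0.287). It changed little for ER chaperones (0.423 and 0.426), glucuronosyltransferases (0.542 and 0.545) and cholesterol synthesis (-0.385 and -0.391). Some other medians were smaller in size with flow cell than without. They were 0.29 and 0.57 for PPARalpha targets, -0.28 and -0.53 for ATF4 targets, 0.165 and 0.28 for PXR targets, and -0.95 and -1.24 for erythroid markers.

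Of 8 AhR target genes tested after esomeprazole 4 rose and 0 fell, with a median of 1.28 against -0.003 over all genes tested. Cyp1a1 was at 98.7, 56.8, 10.7 and 59.6 CPM in animals 1 to 4 against 1.21, 0.908, 0.192 and 0.124 CPM in their vehicle animals (log2 fold change 6.51, SE 0.92, adjusted p = 0.011). Cyp1a2 was at 6800, 5390, 1370 and 6390 CPM against 488 to 688 CPM (3.02, SE 0.47, adjusted p = 0.0121). No treated animal overlapped the vehicle group, and animal 3 was the lowest of them. Ugt1a6 was at 237, 213, 42.8 and 187 CPM against 24.2 to 41.8 CPM (2.34, SE 0.51, adjusted p = 0.0436). Ugt1a7c was at 109, 133, 22.5 and 104 CPM against 9.93 to 16.7 CPM (2.69, SE 0.53, adjusted p = 0.0336). In both Ugt1a genes animal 3 stood just above the vehicle range.

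The call of Ugt1a6 was lost when any animal other than esomeprazole animal 3 was left out, at log2 values of 2.14 to 2.66. The same held for Ugt1a7c, at 2.46 to 3.01, while Cyp1a1 and Cyp1a2 were called whichever animal was left out. With flow cell in a fit of all 4 groups none of the 4 genes was called (adjusted p = 0.0777 to 0.2), at log2 values of 6.03 for Cyp1a1, 2.89 for Cyp1a2, 2.39 for Ugt1a6 and 2.47 for Ugt1a7c. The list's median there was 0.35, over 10 members tested in place of 8, and 0.13 over these 10 without flow cell. With no count filter it was 0.23 over 11 members. The median of 1.28 thus holds for the 8 members that passed the filter in this study. Over the 1 flow cell that held treated and vehicle libraries, esomeprazole animal 1 was the only treated animal. There the list's median was 1.83 over 8 members tested, and the log2 value of Cyp1a1 was 6.53. With RIN as a covariate none of the 4 genes was called either (adjusted p = 0.991 in each), at log2 values of 2.89 to 8.35. Cyp1b1 was at 0 to 0.615 CPM in the treated and 0.0642 to 0.544 CPM in the vehicle animals, and Aldh3a1 was at 0 counts in all 4 treated libraries. Both were too low to test. Nqo1 (0.23, SE 0.49, adjusted p = 0.83) and Tiparp (-0.28, SE 0.17, adjusted p = 0.364) were not called. Among the other vehicle animals, 1 was above esomeprazole animal 3 for Cyp1a2 and 8 for Ugt1a6, and none was above animals 1, 2 or 4 in either gene.

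CAR target genes gave 5 of 15 that rose, 0 that fell, and a median of 0.46. Cyp2b2 was at 366, 304, 241 and 290 CPM against 29.6 to 90.6 CPM (log2 fold change 2.46, SE 0.33, adjusted p = 0.00749). Cyp2c6v1 was at 3280, 3850, 3460 and 3240 CPM against 1600 to 2100 CPM (0.96, SE 0.12, adjusted p = 0.00336). The treated animals lay above the vehicle animals in both genes and close to each other. Cyp2b1 was at 197, 182, 306 and 170 CPM against 115, 115, 20.1 and 15.7 CPM (1.69, SE 0.71, adjusted p = 0.213). Its groups did not overlap, and its vehicle animals split into a high and a low pair. Ephx1, which rose after omeprazole, was not called (0.21, SE 0.31, adjusted p = 0.748).

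Abcc3 and Gsta3 were among the largest increases. Abcc3 was at 18.9, 59.9, 30 and 36.3 CPM against 3.99 to 6.74 CPM (2.77, SE 0.36, adjusted p = 0.00749). Gsta3 was at 56.3, 93.1, 34.5 and 78.9 CPM against 3.11 to 11.6 CPM (3.05, SE 0.48, adjusted p = 0.0146). Aldh1a1 was at 284, 752, 661 and 563 CPM against 150 to 248 CPM (1.59, SE 0.30, adjusted p = 0.02). The groups did not overlap in these 3 genes. Animals 1 and 3 were the lower ones for Abcc3 and Gsta3, and animal 1 was close to the vehicle range for Aldh1a1. The vehicle mean of Abcc3 was 5.31 CPM here and 22.3 CPM in the omeprazole study, each scaled within its own comparison. Of the 116 other vehicle animals, 13, 0, 5 and 1 were above esomeprazole animals 1 to 4 for Abcc3.

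Ces2a was the one PXR target of 10 tested that was called, at 86.2, 152, 126 and 127 CPM against 17.7 to 42 CPM (2.01, SE 0.29, adjusted p = 0.00872). Cyp3a23/3a1 (0.38, SE 0.20, adjusted p = 0.297), Cyp2c24 (0.46, SE 0.53, adjusted p = 0.661) and Ugt1a1 (-0.30, SE 0.14, adjusted p = 0.24) were not called. In these 3 genes treated and vehicle animals overlapped. Ces2, another carboxylesterase 2 gene, was at 108, 119, 92.5 and 81.8 CPM against 12.1 to 20 CPM (2.62, SE 0.17, adjusted p = 0.000333). Of 18 glutathione transferases 3 rose: Gsta3, Gstm7 (0.89, adjusted p = 0.00908) and Gsta4 (0.77, adjusted p = 0.0305). Of 12 glucuronosyltransferase genes 4 rose, Ugt1a6 and Ugt1a7c with Ugt2b10 (1.43) and Ugt2b35 (0.49). Of 28 NRF2 targets 3 rose and 3 fell, with Gsr, glutathione reductase (0.56), among the risers. With single animals left out 2 to 5 glutathione transferases, 1 to 5 glucuronosyltransferases and 1 to 3 NRF2 targets rose.

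**Figure D2:**
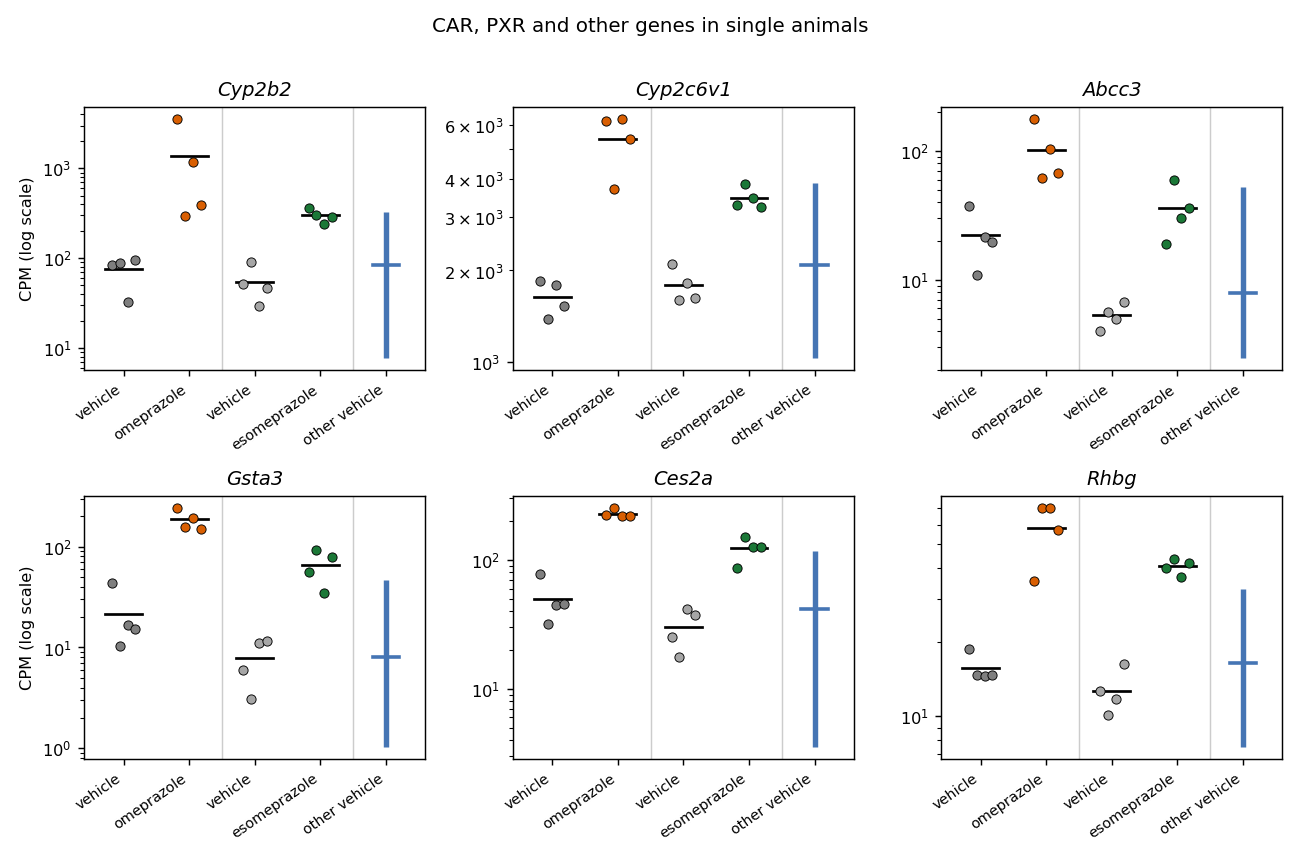
CPM on a log scale of 6 genes in single animals, laid out as in the plot of AhR genes, with group means (black lines) and the 116 other vehicle animals (blue bar from lowest to highest, tick at the median). Treated animals lie above the vehicle animals of their own study in each panel. Gsta3, Abcc3, Ces2a and Rhbg come from the shared ranking, which required no overlap in both studies, so their separation was set by that choice. Cyp2b2 comes from the esomeprazole ranking, which required no overlap in that study. Cyp2b2 spreads from 298 to 3570 CPM among omeprazole animals and from 241 to 366 CPM among esomeprazole animals.

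Chaperones of the endoplasmic reticulum (ER), the membrane system that also carries P450 proteins, were called in part after esomeprazole. Of 19 tested 7 rose and 0 fell, with a median of 0.43, and 2 to 7 rose with single animals left out, the fewest without vehicle animal 3. None was called with flow cell in a fit of all 4 groups (median 0.42) or with RIN as a covariate (median 0.59). Hspa5, the chaperone BiP, was at 867, 739, 807 and 902 CPM against 440 to 540 CPM (log2 fold change 0.76, SE 0.11, adjusted p = 0.00457). P4hb, a protein disulfide isomerase, was at 1680, 1750, 1510 and 2070 CPM against 1010 to 1110 CPM (0.71, SE 0.11, adjusted p = 0.00808). The groups overlapped in neither gene. Hsp90b1, the ER form of Hsp90, rose by 0.69 (adjusted p = 0.0151), and Hyou1, Pdia3, Pdia4 and Pdia6 by 0.54, 0.45, 0.49 and 0.49. After omeprazole 1 of 19 rose, P4hb (0.53, adjusted p = 0.0282), with a median of 0.13. On the scale of the other vehicle animals the Hspa5 mean of the esomeprazole study's vehicle group, 488 CPM, was below each other study mean (494 to 804 CPM), and the esomeprazole mean, 832 CPM, was above them.

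ATF4 target genes, the amino acid stress response, fell in 5 of 22 members tested and rose in 0 (median -0.53). Psat1, of serine synthesis, was at 2.19, 0.704, 0.711 and 0.997 CPM against 14.6, 4.8, 9.43 and 7.73 CPM (-3.02, SE 0.45, adjusted p = 0.00812). Atf3, a stress transcription factor, was at 1.09, 0.553, 0.593 and 0.499 CPM against 1.67 to 5.32 CPM (-2.12, SE 0.41, adjusted p = 0.0174). The groups overlapped in neither gene. Gdf15, a stress hormone (-1.82), Mthfd2, of mitochondrial folate metabolism (-1.73), and Slc3a2, an amino acid carrier subunit (-0.63), fell as well. On the scale of the other vehicle animals the vehicle mean of Psat1, 9.11 CPM, was above each other study mean (1.08 to 8.5 CPM), and the esomeprazole mean was 1.15 CPM. Without esomeprazole animal 2 or 4, 2 genes of the list were called. None was called with flow cell in a fit of all 4 groups (median -0.28) or with RIN as a covariate (median -0.18). After omeprazole 2 rose and 0 fell, and none was called without omeprazole animal 2 or 3 or their vehicle animal 2, 3 or 4.

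Genes of sugar and fat metabolism were called in the same comparison. Pklr, the liver pyruvate kinase, was at 63.1, 68.4, 61.3 and 62.4 CPM against 91 to 165 CPM (-1.02, SE 0.15, adjusted p = 0.00749). Fasn, the fatty acid synthase, was at 20, 12.2, 24.7 and 13.3 CPM against 32.6 to 54.6 CPM (-1.28, SE 0.27, adjusted p = 0.0316). The groups overlapped in neither. Pygl, liver glycogen phosphorylase, fell by 0.69. Of 16 fatty acid synthesis genes tested 3 fell, and of 25 cholesterol synthesis genes 4 fell (Cyp51, Idi1, Acat2 and Fdps, at -1.19, -1.26, -1.12 and -0.57). With single animals left out 1 to 3 and 1 to 6 of them fell. Of 31 targets of PPARalpha, the fatty acid sensor, 4 rose: Decr1 (0.70), Acadl (0.72), Hadhb (0.81) and Acaa1a (0.76), all enzymes of fatty acid oxidation. Without esomeprazole animal 1, 16 of them rose, and without any 1 of the other 7 animals 1 did. None was called with flow cell in a fit of all 4 groups (median 0.29) or with RIN as a covariate (median 0.11). Over the flow cell that held treated and vehicle libraries (1 against 2, the single treated library being assumed to vary like the others) the list's median was -0.20, against 0.57 over all animals.

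The vehicle groups themselves differed in these pathways, although strain, sex, vehicle, days and batch number were the same. Of 12484 genes tested 871 were called, 360 higher and 511 lower in the vehicle group of the esomeprazole study than in that of the omeprazole study. That was 6.98% of those tested, 2.88% higher and 4.09% lower. The count was 426 without esomeprazole vehicle animal 3, and 536 and 462 without omeprazole vehicle animals 2 and 4. Of 31 PPARalpha targets 22 were lower and 1 higher (median -0.76), and of 16 fatty acid synthesis genes 7 were higher and 2 lower (median 0.64). Srebf1, the transcription factor of fat synthesis, differed by 2.17 (adjusted p = 0.00702) and Ehhadh, a peroxisomal oxidation enzyme, by -2.68 (adjusted p = 0.000786). Fasn and Pklr differed by 1.24 and 1.23. The median of 8 AhR targets tested was 0.08. This comparison shares its animals with the drug comparisons, so the values stand side by side only, and what set the levels apart was not tested.

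The largest decreases after esomeprazole by the ranking used here were Wbp11 (-4.07), Stac3 (-3.91), Cib2 (-3.36), Npas2, Psat1, Abcc8, Slc16a11 and Nupr1l1 (-1.97). Npas2, a clock transcription factor, was at 1.71, 2.26, 0.474 and 0.886 CPM against 19.4, 14.1, 10.2 and 4.21 CPM (-3.15, SE 0.58, adjusted p = 0.0227). Abcc8, the sulfonylurea receptor, was at 2.8, 1.66, 0.948 and 1.27 CPM against 16.3, 7.98, 12.4 and 7.05 CPM (-2.72, SE 0.37, adjusted p = 0.00663). The groups overlapped in neither gene, which the ranking required. Npas2 was the one clock gene of 17 tested that fell. Stac3, Abcc8 and Nupr1l1 were also higher in this vehicle group than in that of the omeprazole study, by 2.60, 2.90 and 1.45.

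Some increases after esomeprazole fell outside the drug-metabolising lists. Gpt, alanine aminotransferase, was at 299, 279, 245 and 308 CPM against 138 to 171 CPM (0.92, SE 0.10, adjusted p = 0.00232). Tfrc, the transferrin receptor, was at 118, 104, 117 and 128 CPM against 53.3 to 74.8 CPM (0.89, SE 0.12, adjusted p = 0.0036). Cd14, a lipopolysaccharide co-receptor, was at 93.1, 95.7, 106 and 117 CPM against 41.8 to 53.2 CPM (1.09, SE 0.10, adjusted p = 0.00112). The groups did not overlap in these 3 genes. Cd14 is one of 15 macrophage markers tested, of which 1 rose and 1, C1qa, fell. Their summed level was 796 to 1100 CPM against 832 to 1190 CPM in vehicle animals, with none at 0 in all libraries. Of these markers 12 had a log2 value below 0 (median -0.23), as had 10 of 10 lymphocyte markers tested (median -0.45), of which none was called.

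Of 5 erythroid markers tested after esomeprazole 1 fell, Hba-a3 (-1.30, SE 0.34, adjusted p = 0.0491). Hbb was at 78.4, 94.4, 196 and 256 CPM against 165, 505, 519 and 285 CPM, with overlap (-1.24, SE 0.51, adjusted p = 0.203). The summed erythroid level was 204 to 655 CPM against 491 to 1370 CPM. Ccnd1 was at 10.5, 56.9, 11.6 and 12.5 CPM against 73.1, 98.2, 90.7 and 28.6 CPM, where esomeprazole animal 2 alone reached the vehicle range (-1.66, SE 0.69, adjusted p = 0.209). Without that animal Ccnd1 was called (-2.66, adjusted p = 0.0345).

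**Figure D3:**
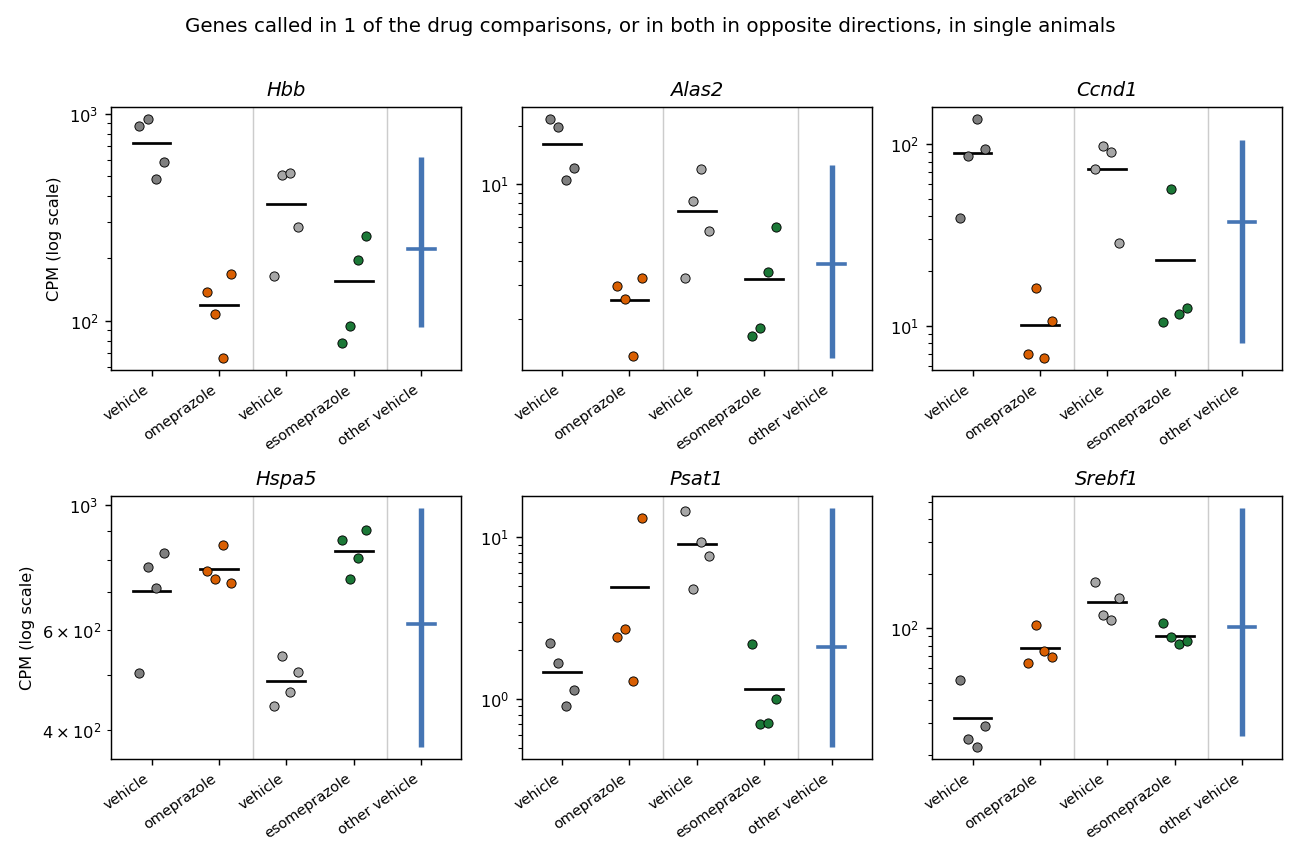
CPM on a log scale of 6 genes in single animals, laid out as in the plot of AhR genes. The vehicle animals of the omeprazole study reach 947 CPM for Hbb, and Srebf1 is at 22.1 to 51.8 CPM in that vehicle group against 111 to 180 CPM in the vehicle group of the esomeprazole study.

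Both drugs shared 185 genes called in the same direction, 135 higher and 50 lower, of 12239 tested in both comparisons. That is 1.51% of the genes tested, 1.1% higher and 0.409% lower. The shared genes made up 27.8% of the omeprazole calls and 24.6% of the esomeprazole calls. Among increases these shares were 35.2% and 34.4%, and among decreases 17.8% and 13.9%. Of 648 omeprazole calls tested in both, 95.4% had the same sign after esomeprazole, and of 750 esomeprazole calls 91.5% had the same sign after omeprazole, against 70.6% of all genes tested in both. The 2 comparisons share no animal, but mean RIN was higher in the treated than in the vehicle animals of both studies. It was 8.07 against 7.4 for omeprazole and 7.92 against 6.95 for esomeprazole. The part of RIN in the shared signs was not tested. The shared count ran from 56 without vehicle animal 4 of the omeprazole study to 300 without omeprazole animal 4. Without omeprazole animals 2 and 3 it was 103 and 75, without their vehicle animals 2 and 3 57 and 78, without esomeprazole animals 2 and 4 104 and 94, and without their vehicle animals 1, 2 and 3 115, 116 and 90. It was 429 in DESeq2, 18 with flow cell in the fit and 0 with RIN.

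Drug-metabolising genes made up most of the strongest shared increases. Ranked by the smaller of the 2 fold changes, with a mean of at least 5 CPM and no overlap in both studies, the first 8 were Cyp1a1, Gsta3, Cyp1a2, Ugt1a7c, Ugt1a6, Abcc3, Ces2a and Rhbg. Rhbg, an ammonium transporter, was at 35.4, 69.8, 70.3 and 56.8 CPM after omeprazole against 14.6 to 18.8 CPM (1.89, SE 0.21, adjusted p = 0.00548). After esomeprazole it was at 40.1, 43.5, 36.9 and 42 CPM against 10.1 to 16.3 CPM (1.68, SE 0.14, adjusted p = 0.000588). All 8 treated animals were above the highest of the 116 other vehicle animals (32.9 CPM). Grin2c also rose after both drugs, but its esomeprazole mean of 4.23 CPM (SD 2.16, n = 4) was under the level set for the ranking. It was at 4.65, 5.43, 1.07 and 5.76 CPM against 0.0604 to 0.454 CPM after esomeprazole (4.32, SE 0.66, adjusted p = 0.00833). Animal 3 was the low one, as for the AhR genes. Gsta4, Gstm7, Ugt2b10, Ugt2b35, Ces2, Cyp2c6v1 and Aldh1a1 were also higher after both drugs, as was Cyb5a, the electron donor cytochrome b5 (0.58 and 0.52).

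Among shared decreases the first 8 by the same ranking were Slc16a11, Adam11, Crym, Apoc3, Tgfb3, Plpp2, Kynu and Hmox1. Slc16a11, a member of the monocarboxylate carrier family, was at 6.63, 3.77, 4.13 and 3.91 CPM after omeprazole against 16 to 18.6 CPM (-1.90, SE 0.18, adjusted p = 0.0019). After esomeprazole it was at 2.94, 3.22, 6.16 and 6.7 CPM against 20.9 to 30.9 CPM (-2.45, SE 0.27, adjusted p = 0.00286). All 8 treated animals lay below all 8 vehicle animals. Apoc3, the apolipoprotein that slows triglyceride clearance, was at 1300, 966, 1060 and 1190 CPM against 1820 to 2360 CPM after omeprazole (-0.89, SE 0.13, adjusted p = 0.00765). After esomeprazole it was at 1480, 840, 1360 and 1530 CPM against 2450 to 3240 CPM (-1.06, SE 0.19, adjusted p = 0.0106). Neither study's groups overlapped for Apoc3. Crym, a binder of thyroid hormone, fell by 1.77 (adjusted p = 0.00272) and by 1.01 (adjusted p = 0.0316).

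The other shared decreases were smaller or more variable. Adam11 was at 12 to 31.6 CPM against 40.8 to 107 CPM after omeprazole (-1.69, SE 0.38, adjusted p = 0.0494), and at 28.4 to 35.3 CPM against 70.1 to 174 CPM after esomeprazole (-1.84, SE 0.31, adjusted p = 0.0154). Tgfb3, a growth factor of the TGF-beta family, fell by 0.88 after omeprazole and by 1.02 after esomeprazole. Plpp2, a lipid phosphatase, fell by 0.88 and by 0.89. Kynu, which breaks down kynurenine, fell by 0.88 and by 0.83, and Hmox1 by 0.89 and by 0.74. Igf1, the growth hormone dependent growth factor, fell by 0.92 (adjusted p = 0.0196) and by 0.42 (adjusted p = 0.0203). Fgfr4 fell by 0.58 and by 0.48.

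One gene was called in opposite directions. Srebf1 was at 64.5, 104, 75.2 and 69 CPM after omeprazole against 51.8, 24.5, 22.1 and 28.7 CPM in vehicle animals (1.30, SE 0.29, adjusted p = 0.0394). After esomeprazole it was at 107, 89.1, 82 and 84.5 CPM against 180, 118, 111 and 146 CPM (-0.61, SE 0.16, adjusted p = 0.0479). No group overlapped its own vehicle group. The treated means were 78.2 and 90.6 CPM, and the vehicle means were 31.8 and 139 CPM, each scaled within its own comparison. Both calls were lost when most single animals were left out, with log2 values of 1.13 to 1.64 after omeprazole and -0.70 to -0.46 after esomeprazole.

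**Figure D4:**
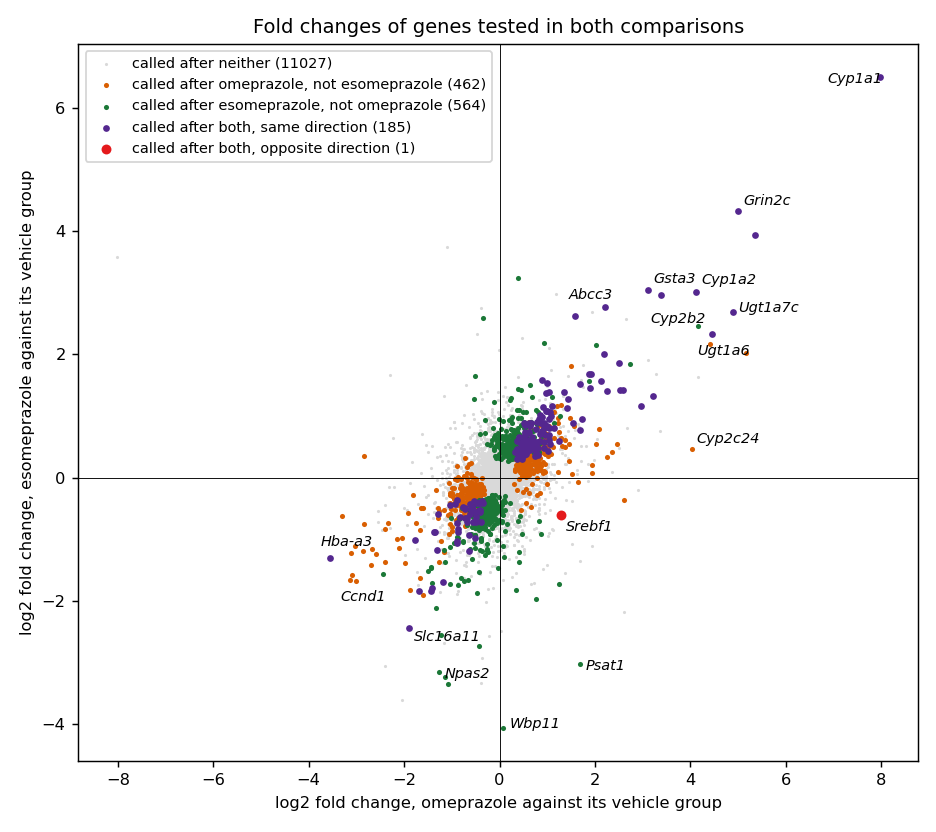
Log2 fold change after omeprazole (x) against that after esomeprazole (y), each against its own vehicle group, for the 12239 genes tested in both (points, coloured by the calls). The 185 genes called in both with the same sign lie at the lower left and upper right with Cyp1a1 farthest out, and Srebf1 is the one call of opposite sign.

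Levels per transcript length (FPKM) place these genes within P450 families 1 to 4. Over 52 P450 genes in the deposited FPKM values, Cyp1a2 had rank 18 in the vehicle group of the omeprazole study (329 ± 18.5 FPKM, SD, n = 4) and rank 18 in that of the esomeprazole study (311 ± 38.4 FPKM). It had rank 1 after omeprazole (5830 ± 3050 FPKM) and rank 2 after esomeprazole (2590 ± 1250 FPKM). Its part of the summed level of these 52 genes was 1.83% and 1.94% in the vehicle groups, and 21.2% and 12.3% in the treated groups. Cyp1a1, despite its larger fold change, was at 152 ± 176 FPKM (rank 22) after omeprazole and 21.5 ± 13.1 FPKM (rank 31) after esomeprazole. Cyp2c6v1 had rank 7 in vehicle and 3 in omeprazole animals, and rank 5 in vehicle and 3 in esomeprazole animals. Cyp2e1, a constitutive P450 of ethanol metabolism, held 15.1% and 9.07% of the sum in the omeprazole study, and 15.5% and 14.5% in the esomeprazole study. These shares are descriptions with no test.

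**Figure D5:**
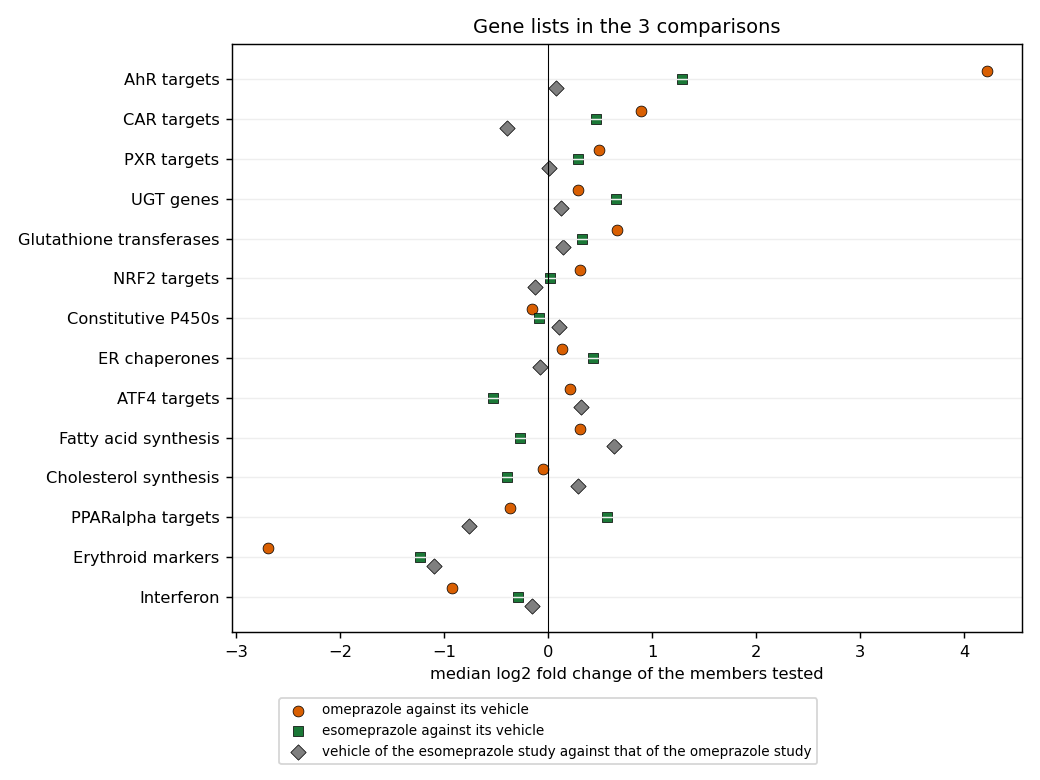
Median log2 fold change of the tested members of 14 gene lists for omeprazole (circles), esomeprazole (squares) and the vehicle group of the esomeprazole study against that of the omeprazole study (diamonds). AhR targets stand at 4.21 (10 members tested) and 1.28 (8 tested) after the drugs and at 0.08 (8 tested) between the vehicle groups. Over the same 10 AhR members, in 1 fit of all 4 groups, the medians were 4.22 after omeprazole and 0.13 after esomeprazole. PPARalpha targets stand at -0.37, 0.57 and -0.76.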

How the data were processed

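Liver RNA of 16 rats was measured by RNA-seq. Per the labels' protocols, RNA was extracted with MagMAX kits and libraries were made with the TruSeq Stranded mRNA kit. The genome build was Rnor 6.0 per the submitters' processing notes; the aligner and counting tool are not given in the sources used here. The authors deposited expected counts per Ensembl gene (estimated counts, of which 88.4% of non-zero values lie within 1e-6 of a whole number), expected counts per RefSeq gene, and FPKM values, which were used for P450 levels alone. The 10 Ugt1a transcripts have a row each, and the row of the whole locus was left out. Of 743 library columns, 600 of the Ensembl counts and 727 of the other tables were not used.

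Counts were rounded, filtered (filterByExpr), scaled by TMM and tested with the edgeR 4.0.16 quasi-likelihood test (robust, R 4.3.3), each drug against its own vehicle group, with Benjamini-Hochberg adjustment and a threshold of 0.05. The standard error is the absolute log2 fold change over the root of F. CPM values use TMM-scaled library sizes. The test was checked on simulated data. Totals of 15300000 to 20600000 counts set the precision. Nothing states how the animals' libraries were batched beyond the batch number, and flow cells were read from raw file names. The alternatives were RLE, DESeq2 1.42.0, no filter, the RefSeq table, RIN, 1 fit of 4 groups, a fold limit, each animal left out and, added later, flow cell.

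Members and lists were chosen with earlier results of these data known; 654 of 707 list entries matched a gene. Named are all called AhR, CAR and PXR genes, up to 6 of any other list by adjusted p, and the 8 largest changes per direction, per drug and shared, with at least 5 CPM and no overlap. For genes taken from these rankings of the largest changes, the lack of overlap was set by that choice. Nqo1, Cyp1b1, Aldh3a1, Ahrr, Tiparp, Cyp2b1, Mgst2, Akr7a3, Gsr, Pdia4, Ehhadh and Cyp2e1 fall outside that rule and were chosen after their values were seen. Some genes that the rule names are not reported here. Genes with near-identical copies (Cyp2b, Cyp3a, Gsta, Ces2, Hba and Ugt1a) are uncertain.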

Additional observations from a re-analysis of the deposited data

Results flagged for a closer look

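In 29 of 411 groups of 4 animals tested, 1 animal stood apart from the other 3 by more of the group's range than Dixon's limit for 4 samples allows. That is 7.06% of the groups. For independent values from a normal distribution the limit is passed in about 1 in 20 groups. CPM values need not be normal, and the genes are not independent and were named with earlier results known. The shares therefore cannot be set against each other. Among omeprazole animals the highest stood apart for Nqo1 at 484 CPM in animal 1 against 46.8 to 90.1 CPM in the others, Cyp1b1 at 27.2 CPM in animal 1 against 0.513 to 4.75 CPM in the others and Cyp2b1 at 7010 CPM in animal 1 against 511 to 1130 CPM in the others. It also held for Ces2a at 255 CPM in animal 2 against 218 to 224 CPM in the others, Gstm7 at 726 CPM in animal 1 against 506 to 541 CPM in the others and Slc27a5 at 660 CPM in animal 4 against 490 to 503 CPM in the others. Further cases were Psat1 at 13.2 CPM in animal 4 against 1.3 to 2.7 CPM in the others, Gdf15 at 3.48 CPM in animal 1 against 1.02 to 1.35 CPM in the others and Mthfd2 at 3.85 CPM in animal 4 against 0.339 to 0.815 CPM in the others. Others were Slc16a11 at 6.63 CPM in animal 1 against 3.77 to 4.13 CPM in the others and Nupr1l1 at 120 CPM in animal 4 against 22.6 to 36 CPM in the others. The lowest stood apart for Acadl at 392 CPM in animal 1 against 560 to 566 CPM in the others and Gpt at 156 CPM in animal 3 against 241 to 254 CPM in the others.

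In the vehicle group of the omeprazole study the highest stood apart for Gsta4 at 102 CPM in animal 1 against 69.7 to 74.6 CPM in the others and Rhbg at 18.8 CPM in animal 1 against 14.6 to 14.7 CPM in the others. The lowest there stood apart for Ugt1a7c at 8.05 CPM in animal 4 against 13.7 to 14.8 CPM in the others and Pdia4 at 217 CPM in animal 1 against 321 to 329 CPM in the others.

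Among esomeprazole animals the highest stood apart for Ccnd1 at 56.9 CPM in animal 2 against 10.5 to 12.5 CPM in the others, Me1 at 64.6 CPM in animal 2 against 35.5 to 38.8 CPM in the others and Gpx2 at 8.2 CPM in animal 2 against 0.775 to 1.78 CPM in the others. Next came Orm1 at 1160 CPM in animal 1 against 465 to 532 CPM in the others, Stac3 at 4.17 CPM in animal 1 against 0.201 to 0.77 CPM in the others and Atf3 at 1.09 CPM in animal 1 against 0.499 to 0.593 CPM in the others. Also apart were Idi1 at 9.96 CPM in animal 3 against 5.33 to 6.02 CPM in the others. The lowest stood apart for Dpt at 277 CPM in animal 2 against 385 to 407 CPM in the others. In the vehicle group of the esomeprazole study the highest stood apart for Ugt1a1 at 1220 CPM in animal 2 against 891 to 929 CPM in the others and Gpx2 at 2.29 CPM in animal 4 against 0.121 to 0.389 CPM in the others. The lowest there stood apart for Cyp51 at 84.4 CPM in animal 4 against 122 to 129 CPM in the others and Pygl at 259 CPM in animal 2 against 303 to 308 CPM in the others.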

How the results depend on the processing

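Counts are given for omeprazole, esomeprazole, the vehicle groups against each other and the genes shared by both drugs, in that order. RLE scaling gave 660, 742, 870 and 177, no count filter 638, 691, 801 and 178 and RefSeq counts 805, 833, 969 and 216, all within 1.5 times of the values reported. DESeq2 gave 1248, 1232, 1330 and 429. RIN as a covariate gave 22, 0, 176 and 0. A fit of all 4 groups gave 1097, 948, 736 and 368. Flow cell as a covariate in that fit, chosen after seeing the data, gave 1019, 21, 584 and 18. The libraries of 1 flow cell alone, also chosen after seeing the data, gave 41, 19, 138 and 1, from fewer samples. A log2 fold change of at least 1 besides the threshold left 158, 122, 184 and 37. Leaving out 1 animal at a time gave 142 to 936 for omeprazole, 295 to 774 for esomeprazole, 426 to 880 for the vehicle groups and 56 to 300 for the shared genes. The share of calls that were higher was 57.7% after omeprazole and 36.4% with RIN, and between the vehicle groups 41.3%, 25% with RIN, 52.2% with flow cell and 55.1% within 1 flow cell. Apart from fewer samples or genes, the cause of these shifts was not tested.

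Of the genes named, 66 were called after omeprazole and 64 after esomeprazole. They kept their sign under every alternative in which they were measured, except Apoc3 after esomeprazole, at 0.02 (adjusted p = 0.998) with RIN. The call was lost for 59 and 63 of them with RIN beside Apoc3, for 8 and 60 with flow cell, for 54 and 59 within 1 flow cell, and in 164 and 185 of 528 and 512 fits without 1 animal. No paired analysis was possible because the labels give no replicate numbers; animals were numbered in accession order. Genes below a few counts, such as Cyp1b1 and Aldh3a1 after esomeprazole, were not testable at this depth.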
